A study of Homo sapiens with 12 samples.

Results

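BBC3 encodes PUMA, and its locus was examined for hnRNPK occupancy by chromatin immunoprecipitation and sequencing (ChIP-seq) in the established human colorectal cancer cell line HCT116. Every peak that touched the gene body or the 5 kb upstream of it was taken from the 6 deposited peak lists, which gave 9 of the 16214 peaks on chromosomes 1 to 22, X and Y. BBC3 was chosen on measured values, since its peaks in these lists were already known, so its own counts, scores and ranks are a description and carry no test. The gene is BBC3 (ENSG00000105327.18) on the minus strand of chr19:47220822-47232766 (GRCh38), 11945 bp long with 6 annotated transcripts, and with the upstream part the window examined was 16945 bp.

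The study asked whether the long noncoding RNA CRLM1 changes where hnRNPK sits on chromatin. The libraries were labelled CRLM1 overexpression (CRLM1-OE), empty control or antisense control, with 2 replicates in each group. The paper states that the cells used for ChIP-seq also overexpressed hnRNPK, both with CRLM1-OE and in control conditions. It does not name the antisense control there. Of the 12 samples, 6 were immunoprecipitated (IP) libraries and 6 were the matching input libraries, and each peak list compares 1 IP library with its input. A list from cells with raised hnRNPK does not show occupancy at the native level of the protein. Whether this covers the antisense control is not stated. Peak lists carry no expression values, so neither overexpression could be checked here.

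PUMA is a BH3-only member of the BCL-2 family. BH3-only proteins start mitochondrial apoptosis by binding the pro-survival members of the family, which releases the effectors BAX and BAK1, and BBC3 is a classical transcriptional target of p53. hnRNPK has KH domains that bind C-rich single-stranded RNA and DNA, and it also acts as a cofactor of p53. The paper reports it as more cytoplasmic than nuclear in control HCT116 cells and as mostly nuclear with CRLM1-OE.

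The peaks on BBC3 met in 1 stretch of 996 bp, chr19:47226158-47227153, which was covered in 5 of 6 lists. It lies 5613 to 6608 bp inside the gene from the 5' end of the gene record. It holds a coding exon of 191 bp, chr19:47226564-47226754, which is exon 2 of ENST00000341983.8 and exon 3 of ENST00000449228.5 and ENST00000439096.3. In ENST00000341983.8 and ENST00000439096.3 that exon encodes the BH3 domain, the part of PUMA that binds its partners in the family. By its annotated coding bases, ENST00000449228.5 reads the exon in another frame and so does not encode that domain there. The central 300 bases of the stretch, chr19:47226505-47226804, are shown on the gene strand, 5′ to 3′, because they are the bases common to the 5 lists around this exon. The coding exon is in capitals, and lower case marks intron of the protein-coding transcripts. The lower-case bases before the capitals are also exon in a retained-intron transcript, ENST00000598636.1.
BBC3 centre of the shared stretch: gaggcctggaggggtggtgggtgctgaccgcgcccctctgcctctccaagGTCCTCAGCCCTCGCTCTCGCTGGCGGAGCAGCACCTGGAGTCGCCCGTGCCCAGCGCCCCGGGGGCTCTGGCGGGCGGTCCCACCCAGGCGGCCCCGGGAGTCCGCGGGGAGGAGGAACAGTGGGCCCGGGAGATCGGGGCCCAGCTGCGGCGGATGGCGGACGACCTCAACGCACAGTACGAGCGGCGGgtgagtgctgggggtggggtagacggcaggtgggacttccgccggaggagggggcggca

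The sequence was searched for C-rich runs because those are what KH domains of hnRNPK are known to bind. The 60 bases richest in C within the stretch are shown for each strand, with runs of 3 or more C in capitals. On the gene strand they lie at chr19:47226158-47226217 and hold 34 C, and on the other strand they lie at chr19:47226500-47226559 and hold 35 C.
richest in C, gene strand: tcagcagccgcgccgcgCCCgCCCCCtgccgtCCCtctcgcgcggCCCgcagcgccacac
richest in C, other strand: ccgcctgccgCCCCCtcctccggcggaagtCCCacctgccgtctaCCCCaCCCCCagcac

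The stretch also contains 2 microRNA genes on opposite strands of the same bases, MIR3190 at chr19:47226942-47227021 (plus strand) and MIR3191 at chr19:47226944-47227019 (minus strand). The mature forms listed for them in the RefSeq table used here (GRCh38.p14) are shown with the seed (bases 2 to 8) in capitals, because any peak over the stretch is at these genes as well. The 3 seeds shown differ from each other, and hsa-miR-3190-5p is not shown.
hsa-miR-3190-3p: uGUGGAAGguagacggccagaga
hsa-miR-3191-3p: uGGGGACGuagcuggccagacag
hsa-miR-3191-5p: cUCUCUGGccgucuaccuucca

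Both CRLM1-OE lists were longer than every control list, so list length went with that group, whereas median peak width crossed the groups. Peaks numbered 4339 and 3163 in CRLM1-OE, 1619 and 2607 in the empty control and 2262 and 2224 in the antisense control, with median widths from 506 to 747 bp and median scores from 55.675 to 57.62. The score is the caller's own value for a peak, had a floor of 50 in the deposited lists, and was used only to rank peaks within a list, where rank 1 is the highest score. Read depth is unknown for every list, so no peak can be read as an amount of hnRNPK, and a missing peak means only that none passed the caller's threshold.

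In CRLM1-OE replicate 1, the main BBC3 peak spanned chr19:47226158-47228163. It was 2006 bp wide with a score of 207.02, which ranked 35 of 4339 (top 0.807%), and 0.484% of the peaks in that list were as wide. Its midpoint lay 5606 bp from the 5' end of the gene record and 29 bp from the 5' end of a retained-intron transcript, ENST00000598636.1, in the first exon of that transcript. A second, weaker peak of this list lay at the other end of the gene, at chr19:47221520-47222069. It was 550 bp wide with a score of 53.29 and ranked 3008 of 4339 (top 69.3%). Its midpoint fell in the last coding exon of ENST00000300880.11 and ENST00000449228.5, of which it covered all 215 coding bp. In ENST00000341983.8 and ENST00000439096.3 only 114 bp of that exon are coding, and the midpoint is in the 3' UTR.

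In CRLM1-OE replicate 2, a single peak at chr19:47225980-47228688 covered the whole main peak of replicate 1. It was the widest peak on the gene at 2709 bp, and 1.296% of its list was as wide. Its score of 91.49 ranked 266 of 3163 (top 8.41%), the lowest standing among the 5 main peaks. The midpoint was intronic, and the peak covered 480 coding bp in 2 exons, the 191 bp exon and the whole 289 bp exon that precedes it.

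The empty control replicates differed from each other at BBC3. Replicate 1, the shortest list, had no peak on the gene. Replicate 2 had 1 peak at chr19:47226126-47227192, which was 1067 bp wide with a score of 186.49, ranked 48 of 2607 (top 1.84%), and was the narrowest of the 5 main peaks. It centred on the 191 bp coding exon, with its midpoint inside it, and covered no other coding base.

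In antisense control replicate 1, the gene carried 3 peaks. The main peak at chr19:47225654-47227187 was 1534 bp wide with a score of 245.46 and ranked 4 of 2262 (top 0.177%), the highest standing that BBC3 reached in any list. The second peak, chr19:47227584-47228515, was 932 bp wide with a score of 61.85 (rank 673, top 29.8%) and covered the whole 289 bp exon. The third peak, chr19:47230232-47231197, was 966 bp wide with a score of 57.44 (rank 1040, top 46.0%). It was the BBC3 peak closest to the 5' end of the gene record and covered 269 of the 271 bp of the alternative first exon of ENST00000439096.3.

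In antisense control replicate 2, the main peak at chr19:47225716-47227153 was 1438 bp wide with a score of 118.53 and ranked 16 of 2224 (top 0.719%). It lay wholly inside the main peak of antisense control replicate 1. A second peak began just beyond it, at chr19:47227233-47227964, with a width of 732 bp and a score of 88.66 (rank 90, top 4.05%). It touched no exon.

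By rank within the list, the main peaks of CRLM1-OE (top 0.807% and 8.41%) and of the controls (top 0.177%, 0.719% and 1.84%) overlapped. The best BBC3 peak stood in the top 1% of 3 lists, 1 of CRLM1-OE and both of the antisense control, and in the top 10% of all 5 lists that had one. The main peaks were also wide for their lists, of which 0.484% to 3.22% were as wide. Scaled to width, as score per kb, the best peak ranked lower in each of the 5 lists, at the top 72.2% and 98.4% in CRLM1-OE, 3.80% in empty control replicate 2, and 0.707% and 58.5% in the antisense control.

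**Figure D1:**
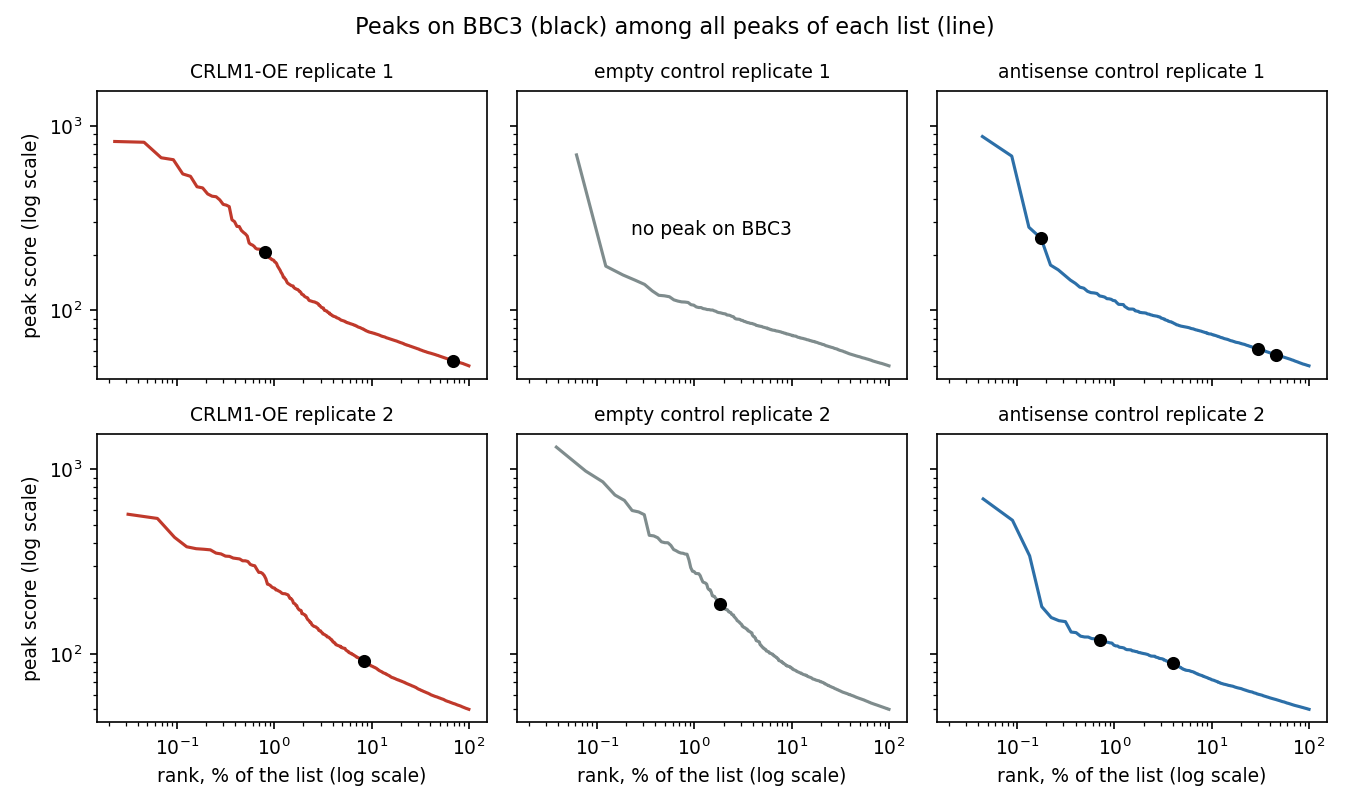
Score (vertical, log scale) against rank as a percent of the list (horizontal, log scale) for all peaks of each of the 6 lists (lines), with the 9 peaks on BBC3 as black points. The best BBC3 peak lies between the top 0.177% and the top 8.41% in 5 lists, and empty control replicate 1 has none.

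All 9 peaks lay wholly within the gene body and 0 touched the 5 kb upstream. No peak came within 1 kb of the 5' end of the gene record, from which the nearest peak edge was 1569 bp away. By midpoint, 6 peaks were in introns, 2 in bases that are coding in at least 1 transcript and 1 in an exon of the retained-intron transcript. The place is thus internal relative to the gene record, although in 5 lists a peak did come within 1 kb of the 5' end of one of the 6 BBC3 transcripts, 3 of which start downstream of the gene record's own start.

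The main peaks differed by how far they ran beyond the shared stretch. Any 2 of the 5 main peaks shared between 996 and 2006 bp, or 39.4% to 93.7% of the bases either of them covered. The antisense control pair shared 93.7% and the CRLM1-OE pair 74.0%. The main peak of each CRLM1-OE list ran as 1 piece from the 191 bp exon to at least the near edge of the 289 bp exon, whereas the antisense control lists held separate second peaks over part of the same ground. The peak of empty control replicate 2 ended at chr19:47227192, and the bases from there to the 289 bp exon were covered throughout in both CRLM1-OE lists, in part in each antisense control list and in no empty control list. Whether a caller splits or joins neighbouring signal was not tested, since the signal itself was not analysed here.

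Counted over the whole window, 12394 of 16945 bp were in no peak of any list, 1751 bp were in 1 list, 656 in 2, 701 in 3, 447 in 4, 996 in 5 and 0 in all 6. BBC3 peaks covered 2556 bp (15.1%) and 2709 bp (15.99%) of the window in CRLM1-OE, 0 and 1067 bp (6.30%) in the empty control, and 3432 bp (20.3%) and 2170 bp (12.8%) in the antisense control. The CRLM1-OE values fell between those of the antisense control replicates, and both groups lay above the empty control. These are called lengths and not signal.

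**Figure D2:**
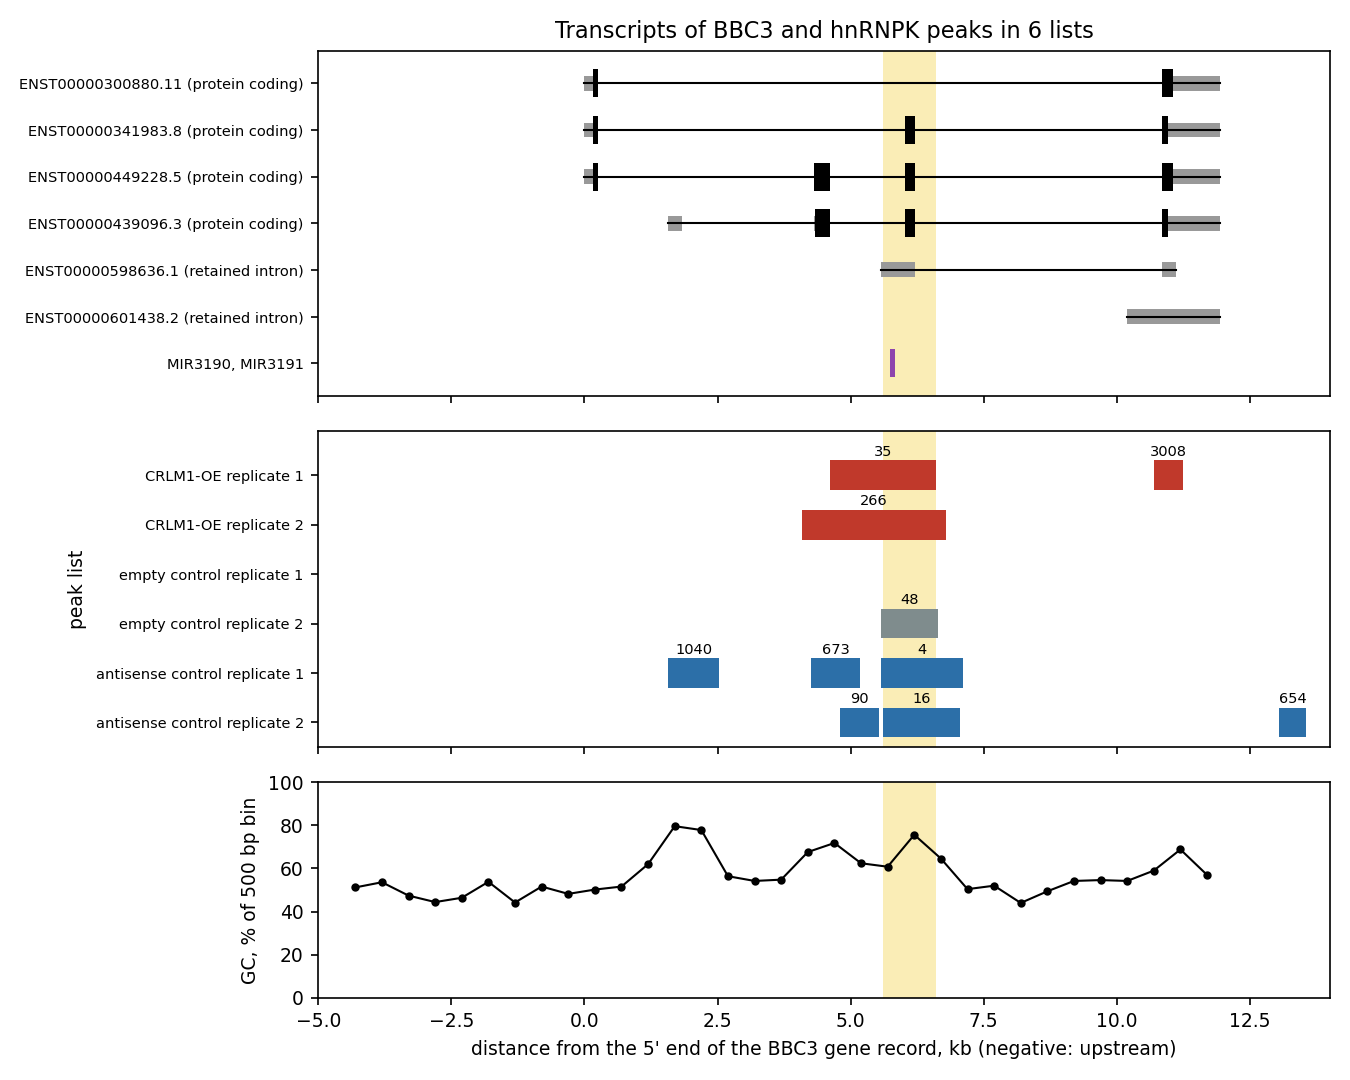
The upper panel shows the 6 BBC3 transcripts (black: coding, grey: non-coding exon parts) and MIR3190 and MIR3191, the middle panel the peaks of the 6 lists with their score ranks, and the lower panel the GC percent in 500 bp bins, all against distance from the 5' end of the gene record in kb. The shaded 996 bp are in the peaks of 5 lists, 0 peaks lie upstream of the gene, and the peak at the far right (rank 654) lies 1105 bp past the 3' end.

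The peaks nearest to the window but outside it were few. In antisense control replicate 2, a peak at chr19:47219207-47219717 (511 bp, score 60.69, rank 654 of 2224) lay 1105 bp past the 3' end of the gene. In CRLM1-OE replicate 2, a peak at chr19:47243614-47244641 (1028 bp, score 68.57, rank 752 of 3163) lay 5848 bp beyond the upstream limit, on the lncRNA gene ENSG00000289915. Both were called in 1 list.

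A peak on the body or 5 kb upstream was uncommon among protein-coding genes in each single list. Of 20033 such genes, 10.6% carried one in CRLM1-OE replicate 1 and 9.38% in CRLM1-OE replicate 2. The shares were 3.5% and 5.71% in the empty control lists and 5.7% and 5.84% in the antisense control lists. BBC3 was among these genes in 5 lists, and the list without it is the one in which the fewest genes, 701, carried a peak. Whether the length of that list had a part in the absence was not tested.

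Across lists, 59 genes (0.295%, 95% Wilson interval 0.228 to 0.380%, for counting error only) carried a peak in as many lists as BBC3 or more. The interval treats genes as independent, although some neighbouring genes among them share the same peaks. Most of the 59 were long genes. Their median length was 506680 bp against 27471 bp for all protein-coding genes, and 43 of the 59 were over 100000 bp. BBC3 was 1 of 7 that were no longer than itself, although 29.3% of all protein-coding genes are not longer than BBC3. Among the 5978 genes between 0.5 and 2 times its length, 4 genes (0.0669%) reached 5 lists, BBC3 included.

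A stricter count asked for 1 base covered in as many lists as at BBC3. That left 10 genes (0.0499%), BBC3 among them. At the level of merged regions, where peaks of different lists that share a base are joined, 20 of 15464 regions were in 5 lists and 11 in all 6. The BBC3 region, chr19:47225654-47228688, was 1 of 9 regions in 5 lists that lay on a protein-coding gene and 1 of 8 that lacked empty control replicate 1. The choice of BBC3 rests on this same count, so these shares describe its place and are not evidence for it.

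**Figure D3:**
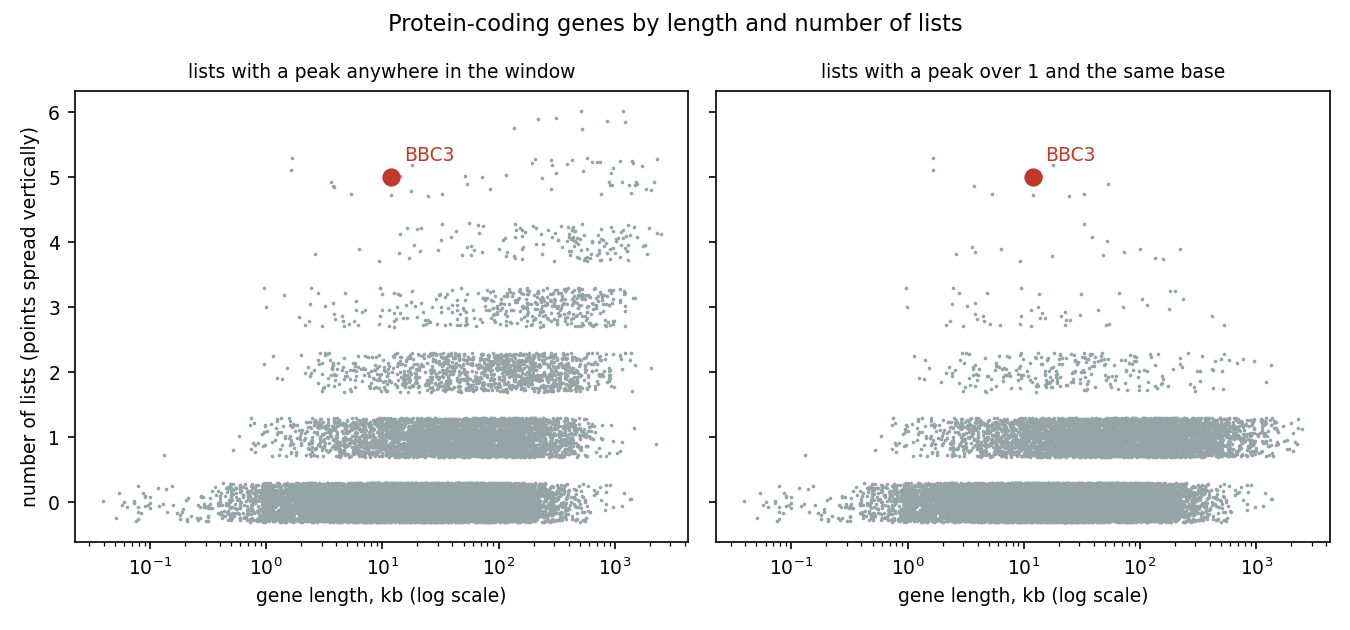
Each point is a protein-coding gene, with its length in kb (horizontal, log scale) against the number of lists (vertical, points spread within each number) with a peak anywhere in its window (left) or over 1 and the same base (right). BBC3 (red) is at 5 lists in both panels, where 59 genes reach 5 or 6 lists on the left and 10 reach 5 or more on the right.

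More than 1 peak on a gene within a list was rare, and BBC3 had this in 3 lists. In CRLM1-OE replicate 1, where BBC3 had 2, 1.64% of protein-coding genes had at least 2. In antisense control replicate 1, where it had 3, 20 genes (0.0998%) had at least 3. In antisense control replicate 2, where it had 2, 0.504% had at least 2.

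The presence of peaks in every list except empty control replicate 1 was shared with 15 other genes. Of these, 2 were not longer than BBC3, and 1 had a single base covered in 5 lists. The mean rank of the best peak over those 5 lists was the top 2.39% for BBC3, ahead of the 15 others. The 5 nearest by this measure were NEK8, a ciliary kinase, and TLCD1, a membrane protein gene (both 12.7%, from the same peaks between them), then SLC35B2, a transporter of the sulfate donor in the Golgi (13.0%), PLXNB2, a semaphorin receptor (18.9%), and ZFPM1, a cofactor of GATA factors (24.5%). PLXNB2 was the gene with a base covered in 5 lists. Likeness here is over 6 lists and says which lists held a peak and how it ranked.

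Around BBC3, the annotation places 9 genes within 100 kb of its body. These are 5 protein-coding genes, the lncRNA genes ENSG00000289915 and ENSG00000286669, and the microRNA genes MIR3190 and MIR3191 inside BBC3. Of the 5 protein-coding neighbours, 1 carried a peak in any list, where 28.2% of all protein-coding genes did. This was SAE1, a subunit of the enzyme that activates SUMO, at chr19:47113274-47210636 on the plus strand, whose nearest end lies 10186 bp from BBC3.

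The SAE1 peaks differed from those on BBC3 in place and in lists. They lay at the 5' end of SAE1, at chr19:47111799-47113326 in CRLM1-OE replicate 1 (score 119.53, rank 88, top 2.03%) and chr19:47112014-47113599 in CRLM1-OE replicate 2 (score 100.74, rank 192, top 6.07%). No control list had a peak on SAE1, whereas 3 of 4 control lists had one on BBC3. More protein-coding genes carried a peak in the CRLM1-OE lists (10.6% and 9.38%) than in the control lists (3.5% to 5.84%). Whether this had a part in the SAE1 pattern was not tested. The share of all protein-coding genes with that same pattern of lists is not given here, so SAE1 cannot be called unusual in it. CCDC9, INAFM1 and the complement receptor genes C5AR1 and C5AR2 had no peak in any of the 6 lists, nor did ENSG00000286669, and ENSG00000289915 had the 1 peak in CRLM1-OE replicate 2 described above.

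**Figure D4:**
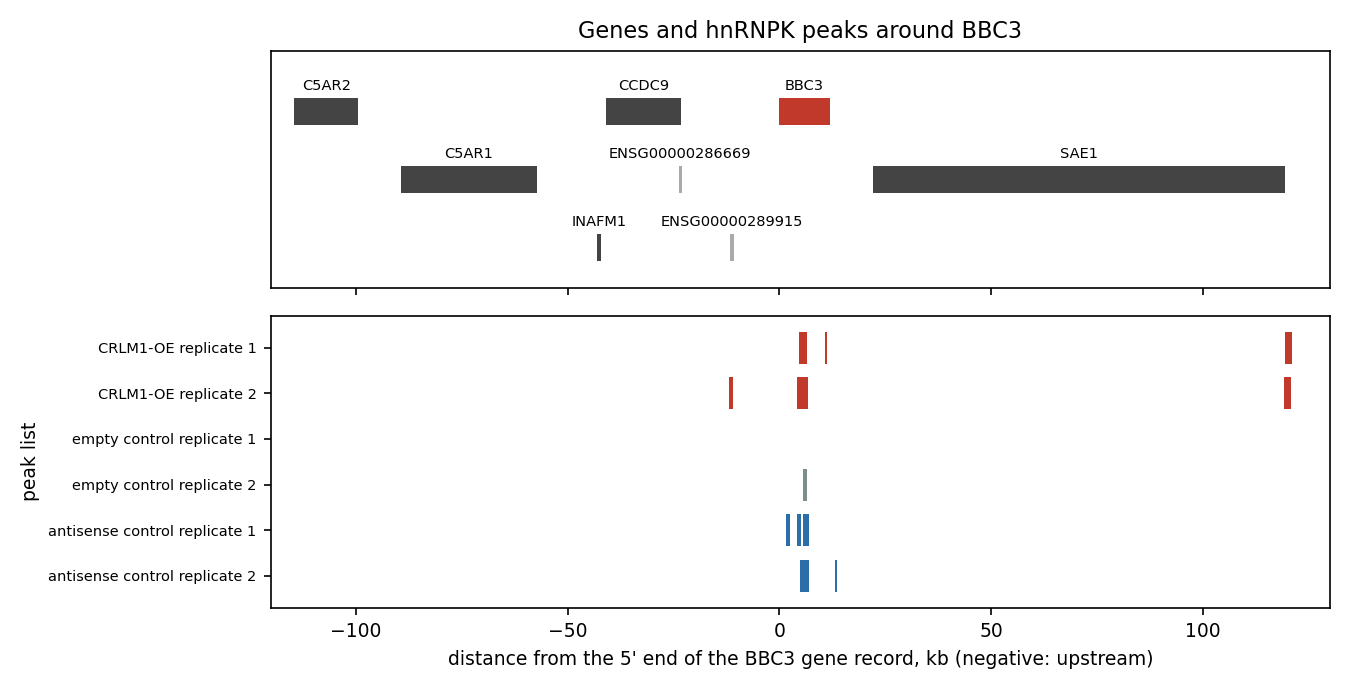
Genes (top; red: BBC3, black: other protein-coding, light grey: lncRNA) and peaks of the 6 lists (bottom) against distance from the 5' end of the BBC3 gene record in kb. BBC3 holds peaks in 5 lists, the far end of SAE1 at the right in the CRLM1-OE lists, and the 4 other protein-coding neighbours in none.

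The flanks, which the choice of BBC3 did not use, allowed a comparison of groups. Within 100 kb on either side but outside the BBC3 window, the CRLM1-OE lists held 0 and 1 peaks and the control lists 0, 0, 0 and 1. The SAE1 peaks lie farther than that from the window and are not in this count. The means were 0.5 and 0.25, a difference of 0.25 peaks, and the groups overlapped (exact permutation test over lists, two-sided, 15 arrangements, p = 1). The smallest p this design allows is 0.0667, so it could not reach 0.05. At 250 kb the CRLM1-OE lists held 1 and 3 peaks and the control lists 0, 0, 0 and 2, the SAE1 peaks included, with a difference of 1.5 (exact permutation p = 0.333). The direction at 100 kb turned to -0.25 without CRLM1-OE replicate 2.

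**Figure D5:**
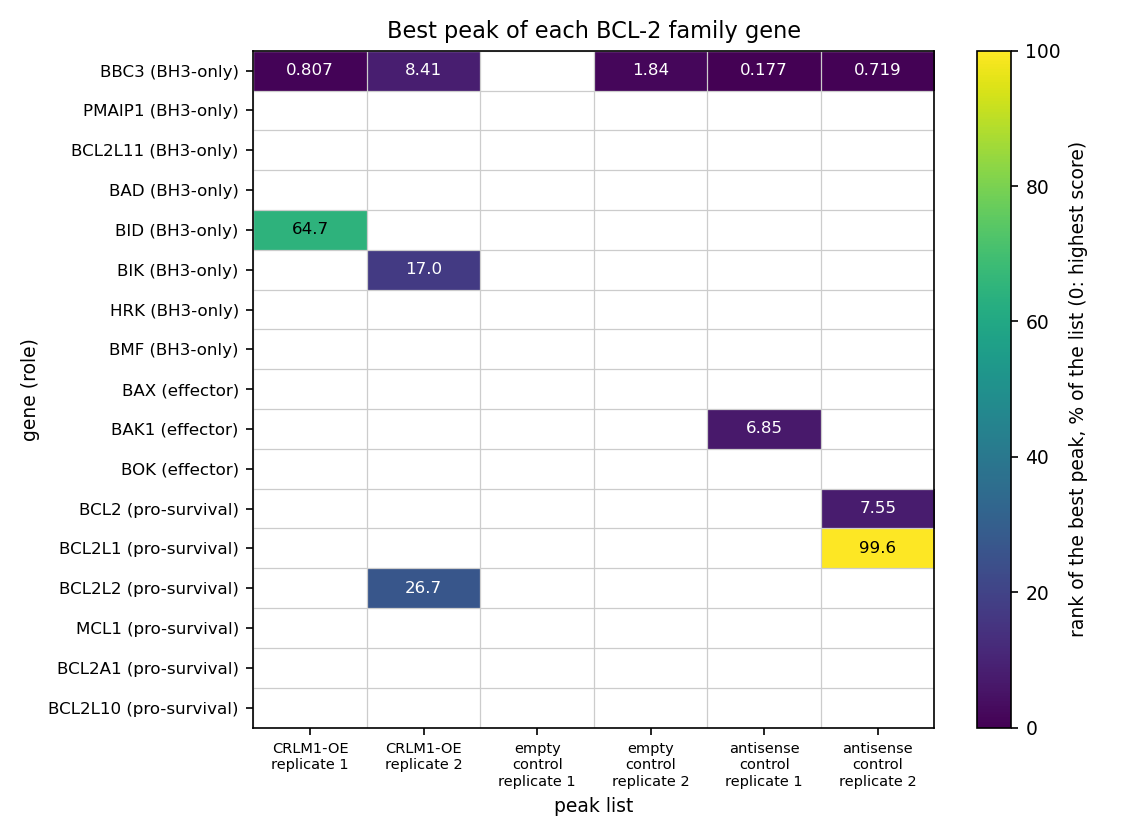
Rank of the best peak, as a percent of the list (colour and printed value, 0 is the highest score), for the 17 BCL-2 family genes (rows) in the 6 lists (columns), with blank cells where no peak was called. BBC3 has values in 5 lists and 6 other members have 1 value each.

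The other 16 genes of the BCL-2 family were examined in the same way. A peak in any list was found on 6 of 16 (37.5%), against 28.2% of all protein-coding genes, and in more than 1 list on 0 of 16, against 8.35%. The median number of lists was 0 for both. By list, 1 and 2 of the 16 had a peak in CRLM1-OE, 0 and 0 in the empty control, and 1 and 2 in the antisense control. BBC3 was the member of the family with peaks in more than 1 list.

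Among the other BH3-only genes, which share the role of PUMA, 2 of 7 had a peak. BID, which links death receptors to mitochondria, had a peak of score 53.91 in CRLM1-OE replicate 1 (rank 2809, top 64.7%), and BIK had one of 73.66 in CRLM1-OE replicate 2 (rank 539, top 17.0%). PMAIP1, which encodes NOXA and is a p53 target like BBC3, had none, nor did BCL2L11 (BIM), BAD, HRK or BMF.

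Of the 3 effectors that permeabilise the mitochondrial outer membrane, BAK1 had a peak of score 78.39 in antisense control replicate 1 (rank 155, top 6.85%), and BAX and BOK had none. Of the 6 pro-survival genes, 3 had a peak. BCL2 had one of 76.87 in antisense control replicate 2 (rank 168, top 7.55%), and BCL2L1 (BCL-XL) one of 50.04 at the floor of the same list (rank 2216, top 99.6%). BCL2L2 (BCL-W) had one of 66.72 in CRLM1-OE replicate 2 (rank 844, top 26.7%), and MCL1, BCL2A1 and BCL2L10 had none. None of these 6 peaks recurred in a second list.

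The 996 bp stretch on BBC3 was richer in GC than the rest of the window, with 70.0% against 55.8%. Its ratio of observed to expected CpG was 0.721 against 0.450. In 33 bins of 500 bp, GC ranged from 44% to 79.6% with a median of 54.2%, and the bins centred in the stretch had 60.8% and 75.6%. The highest bin was outside it, centred 1695 bp from the 5' end of the gene record, where antisense control replicate 1 alone had a peak.

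The 9 BBC3 peaks had between 63.5% and 75.6% GC, above the median of their own lists, which ranged from 40.9% to 43.9%. As much GC as in the BBC3 peak in question was found in 0.840% to 7.55% of the peaks of its list. The part of base composition in the calling of these peaks was not tested.

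C-rich words on both strands were counted in the 996 bp and, for comparison, in windows of the same length at the midpoints of all 16214 peaks. CCCC occurred 35 times with overlaps counted, 12 on the gene strand and 23 on the other, where the median window had 6, 93.6% of windows held it and 5.33% had as many. TCCC occurred 20 times, where the median was 9, 99.3% of windows held it and 9.21% had as many. CCCNCCC occurred 6 times, where the median was 0, 43.4% of windows held it and 7.72% had as many. These words overlap each other, and the stretch is also high in GC. C made up 31.4% of the gene strand and 38.6% of the other strand.

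In the central 300 bases shown above, CCCC occurred 13 times, and 4.21% of windows of that length had as many. TCCC occurred 5 times there (23.8% of windows had as many) and CCCNCCC 2 times (9.79%). The p53 consensus decamer (exact matches on both strands) occurred 7 times in the whole window of BBC3 and 0 times within a peak of any list, and 21.5% of the 996 bp windows at all peaks held 1 or more. Such matches of letters are a description and do not show a binding site, nor does their absence.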

How the data were processed

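hnRNPK ChIP-seq libraries of HCT116 cells were described by GEO's labels as 3 groups of 2 IP and 2 input libraries. Per the labels, the authors trimmed reads with cutadapt and aligned them to GRCh38 with Bowtie2. The methods name MACS2 as the caller. The deposited lists hold positions and a score per peak, with each replicate called on its own. No score was under 50, which resembles the p-value scale of older MACS versions whereas the methods give a q-value cutoff, so the scale of the score is not known and it served only for ranks. BED starts were read as 0-based and are printed 1-based. The number of unused value columns was 0. Read depth is not known, and no interval covers it.

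Gene, exon and transcript positions came from GENCODE release 44, and bases from hg38, in which 0 peaks ran past a chromosome end. A peak counted on a gene when it shared at least 1 bp with the body or the 5 kb upstream. Of 16768 deposited peaks, the 16214 on chromosomes 1 to 22, X and Y were used. Python 3.11.15, numpy 2.4.6, pandas 2.3.3, scipy 1.17.1, pysam 0.24.0 and matplotlib 3.10.9 were used. Flanking peaks were compared by an exact permutation test over lists, in which libraries are the units. In a simulated test with peaks planted on 200 of the 20033 windows of protein-coding genes, all 200 were found and 0 windows differed from a direct count.

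The gene, the list of BCL-2 family members and the words searched were chosen with earlier results of these data known. Genes named beyond these were all protein-coding genes and the microRNA genes within 100 kb, plus the 5 protein-coding genes with peaks in the same lists as BBC3 and the nearest mean rank. The lncRNA neighbours were named after their values were seen.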

Additional observations from a re-analysis of the deposited data

How the results depend on the processing

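The number of lists with a BBC3 peak was 5 among the 1000 highest-scoring peaks, above the median score, on the body alone, with 0.5 of the peak required inside and with starts read as 1-based. It was 4 to 5 when 1 list was left out and 0 within 1 kb of the gene record's 5' end. Within 1 kb of the 5' end of any BBC3 transcript, an alternative chosen after seeing the data, it was 5. The share of protein-coding genes with as many lists was 0.0649% among the 1000 highest-scoring peaks, 0.0669% for genes of like length and 0.0499% for 1 shared base, also chosen after seeing the data. It ran from 0.120% without empty control replicate 1 to 0.544% without antisense control replicate 2. The best peak's rank by score per kb was the top 72.2% and 98.4% in CRLM1-OE, 3.80% in empty control replicate 2, and 0.707% and 58.5% in the antisense control. Among peaks within 1 kb of a gene record's 5' end, MIR3190 and MIR3191 included, it was 3.23% and 22.95% in CRLM1-OE, 2.33% in empty control replicate 2, and 0.503% and 2.21% in the antisense control. The flank difference ran from -0.25 without CRLM1-OE replicate 2 to 0.75 without CRLM1-OE replicate 1, and with a replicate block it was 0.25 (exact permutation p = 1, 4 arrangements, smallest possible 0.5). The numbers give only 2 replicates, and whether they pair the libraries was not tested. The cause of these shifts was not tested. Of 44 alternatives, 1 reversed a direction and 19 moved a value beyond its margin, which was 1.5 times for the number of lists and the 95% Wilson interval for shares and ranks. The other 24 stayed within that margin or, for the flank difference, kept its direction without passing the test, although its size changed in some of them. Read depth, which is unknown, limits every count, and a peak missing from a list was not detectable at its threshold.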
